A study of Mus musculus with 59 samples.

Results

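The pons of mice homozygous for a knock-in allele of Atxn3 that carries a single repeat of 82 glutamines (KI-hom) was compared with the pons of wild-type mice. Atxn3 encodes ataxin-3, the deubiquitinating enzyme whose expanded glutamine stretch causes spinocerebellar ataxia type 3 (SCA3). The comparison holds 10 libraries, 4 KI-hom and 6 wild-type, of 59 samples in the series. They were taken by genotype and by their place in the second set of columns of the deposited expression table, which holds 28 libraries. All mice were on a C57BL/6 background and each sample came from 1 mouse as far as the design text says. Their age, litter and day of dissection are not given in the sources used here, so p-values measure the spread between these mice. The set also holds 4 heterozygotes for the same allele (KI-het) and 6 heterozygotes for a variant allele in which the repeat of 82 glutamines is duplicated (dupKi-het), which serve here to place KI-hom. The other 8 libraries came from mice transgenic for human ATXN3 with a Q84 or Q15 repeat, 4 of each, and entered the fit only through its estimate of spread. Expression is given as FPKM, fragments counted on a gene divided by transcript length and by the mapped fragments of the library.

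The pons carries the fibre tracts that link the forebrain, the cerebellum and the spinal cord, so its RNA holds a large share of transcripts from oligodendrocytes, the cells that wrap axons in myelin. Myelin membrane is built from cholesterol, galactolipids and a few small membrane proteins such as the tetraspans Mal, Pmp22 and Tspan2. Ataxin-3 binds ubiquitin chains and the segregase Vcp, and it is expressed in all brain cell types, so a knock-in at the endogenous gene is not limited to neurons.

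FPKM summed to 517212 to 553804 per KI-hom library and to 484718 to 560334 per wild-type library, and 13665 to 13919 and 13772 to 13944 genes reached 1 FPKM. Read totals are not given. The steps between low values place the depth of KI-hom libraries 2 to 4 at 91.4 to 100% and of wild-type libraries 2 to 6 at 82.7 to 106% of KI-hom library 2. In every genotype the library numbered 1 stood apart on the first principal component, which held 12.8% of the variance (scores of -29.1 to -20.6 against -1.15 to 18.1 in all other libraries). On the second component the KI-hom libraries (-13.8 to -6.89) lay with the KI-het libraries (-24 to -9.32) and with wild-type libraries 2 (-11.5) and 5 (-20.7), while the other wild-type libraries lay at 1.05 to 12.4. Choroid plexus RNA varied within both genotypes (Ttr at 33.6 to 1874 FPKM in KI-hom and 27.7 to 643 FPKM in wild-type). All 28 libraries came from females by Xist (1.29 to 2.74 FPKM) and Ddx3y (at most 0.0215 FPKM). The myelin gene Mbp was listed at 0 in all wild-type libraries and at 4655 to 5890 FPKM in the KI-hom libraries, so Mbp and 11 other genes with such listings were left out.

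Atxn3, the targeted gene, had 5.61, 5.56, 5.6 and 5.44 FPKM in the KI-hom libraries, against 6.2, 7.07 and 8.15 FPKM (lowest, median, highest) in the 6 wild-type libraries. All 4 KI-hom libraries lay below all wild-type libraries. The difference was -0.29 on the log2(FPKM + 1) scale (95% interval -0.47 to -0.12, limma unadjusted p = 0.00221) and did not pass after adjustment over all genes (limma adjusted p = 0.118). It did not pass in any alternative fit either, with differences of -0.33 to -0.25. FPKM per gene do not show the repeat itself, so this level does not check the genotype labels. None of the other 19 genes measured among partners of ataxin-3 and ubiquitin handling passed, and their list had a median difference of -0.05, against -0.02 over all genes tested.

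Of 14802 genes tested, 89 (0.601%) differed between KI-hom and wild-type pons at a limma adjusted p under 0.05. Of these, 21 (0.142%) rose in KI-hom and 68 (0.459%) fell. With libraries rescaled by their median ratio the split was 34 and 57, and with quantile normalization 33 and 47. Only 59 of the 89 genes passed after median-ratio rescaling and 53 after quantile normalization. The changes of the 89 genes were small: they ran from 0.18 to 0.81 in size on the log2(FPKM + 1) scale, a scale that understates the change of genes of low FPKM, and none passed 2-fold on it. Every fold change given here is a ratio of FPKM + 1 from this scale. For genes of low FPKM it is smaller than the ratio of the FPKM printed beside it. For 80 of the 89 genes no KI-hom library overlapped any wild-type library. Over all genes tested, 112 (0.757%) had all KI-hom libraries above all wild-type libraries and 346 (2.34%) had all of them below. At an unadjusted p under 0.05, 565 genes were higher and 1365 lower.

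Many calls lay close to the threshold, since 43 of the 89 had an adjusted p of 0.04 to 0.05. Wild-type library 2 or 5, which lay with KI-hom on the second component, was nearest to KI-hom for 70 of the 89 genes. The share over all genes tested was not taken, and what sets these libraries apart was not tested. Without wild-type library 2 the number of called genes was 239 and without wild-type library 5 it was 173. Without wild-type libraries 1, 3, 4 and 6 it was 32, 26, 24 and 32. Without KI-hom libraries 1, 2, 3 and 4 it was 22, 29, 19 and 27. Fitting KI-hom and wild-type alone left 6 genes, and leaving out the libraries numbered 1 of every genotype left 41, of which 28 were among the 89. With a term for the libraries numbered 1 all 89 passed among 383. The fits that each drop 1 of the 10 libraries are called leave-one-out fits here, and 14 genes passed in every one: Chdh, Psat1, Acy3, Carhsp1 and the predicted gene Gm12353 rose, and Il33, Pmp22, Tspan2, Car2, Mal, Pde8a, Clmn, Kdm6b and Mga fell.

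**Figure D1:**
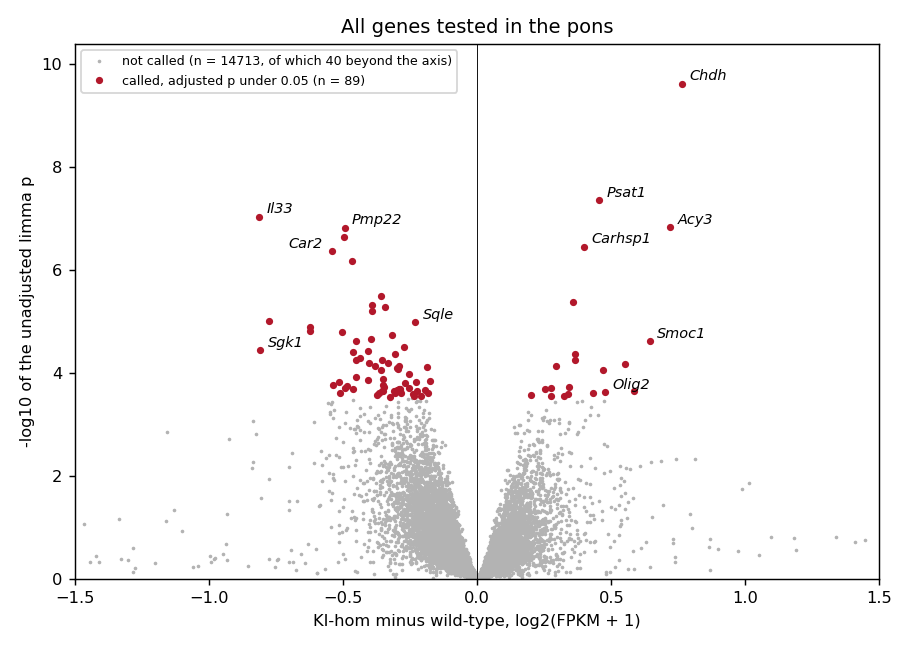
Difference of KI-hom minus wild-type in log2(FPKM + 1) against the -log10 of the unadjusted limma p, 1 point per gene tested. The 89 genes called at an adjusted p under 0.05 are in red; Chdh has the smallest p and Il33 the largest decrease among them, and 40 genes that were not called lie beyond the axis.

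Chdh, Psat1 and Acy3, which each encode an enzyme, had the smallest p among the genes that rose. Chdh, the mitochondrial choline dehydrogenase that starts the conversion of choline to betaine, had 3.9, 4.08, 4.11 and 4.32 FPKM in the KI-hom libraries, against 1.59, 2.12 and 2.29 FPKM (lowest, median, highest) in wild-type. Every KI-hom value was above every wild-type value. Chdh rose by 0.76 ± 0.08 (SE) on the log2(FPKM + 1) scale, or 1.7-fold (limma adjusted p = 3.59e-06). Cacna1d, which overlaps Chdh on the opposite strand and whose reads cannot be told apart from it without strand information, averaged 2.1 and 2.48 FPKM and lay at -0.17 (limma adjusted p = 0.28).

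Psat1, the aminotransferase of serine synthesis, had 115, 114, 116 and 116 FPKM in the KI-hom libraries, against 75.3, 82.2 and 92.7 FPKM in wild-type. Its KI-hom values spread by less than 1 FPKM (SD 0.884, against 6.67 in wild-type). The rise was 1.37-fold (limma adjusted p = 0.000331). Acy3, an aminoacylase that removes the acetyl group from N-acetylated amino acids, had 4.22, 5.38, 4.67 and 4.5 FPKM in KI-hom libraries, against 1.63, 2.63 and 2.94 FPKM in wild-type. The groups did not overlap, and Acy3 rose 1.65-fold (limma adjusted p = 0.000452), a call that was lost when only KI-hom and wild-type were fitted (limma adjusted p = 0.0855).

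Carhsp1, an RNA-binding protein regulated by calcium signals, had 47.2, 52.2, 48.8 and 53 FPKM in KI-hom libraries, against 34.5, 38.3 and 42.6 FPKM in wild-type. It rose 1.32-fold with no overlap (limma adjusted p = 0.000747, and 0.0922 with KI-hom and wild-type fitted alone). Other genes among the 15 largest increases passed less widely. Etv1, an ETS transcription factor, had 34.4, 29.3, 29.7 and 29.2 FPKM in KI-hom, against 18.1, 21.6 and 25.8 FPKM in wild-type, and rose 1.39-fold (limma adjusted p = 0.03, and 0.136 without KI-hom library 1). It was the 1 call among 15 genes of cerebellar cortex and pontine nuclei. Lamtor5, a subunit of the Ragulator complex on lysosomes, rose 1.29-fold (limma adjusted p = 0.0255, and 0.0933 without KI-hom library 3). Hist1h2be rose 1.46-fold (limma adjusted p = 0.028, and 0.136 without KI-hom library 1), but it is 1 of many near-identical histone genes and its FPKM are uncertain. The antisense RNA Pou3f3os, Tubd1 and Serpinb3c rose 1.35-, 1.26- and 1.27-fold, and each held in 2 of the 10 leave-one-out fits.

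**Figure D2:**
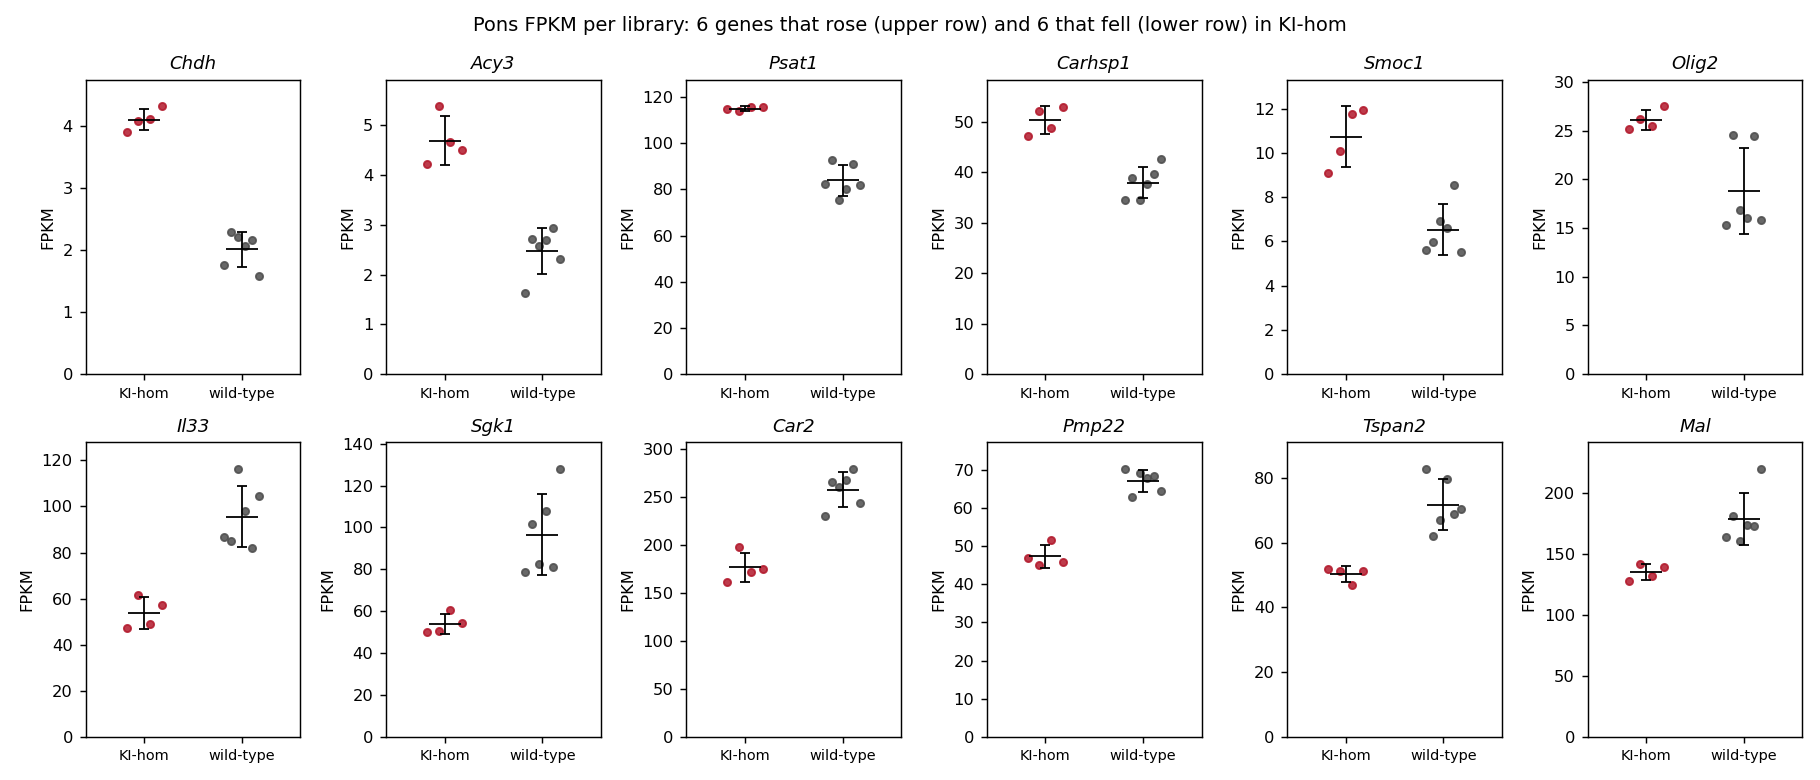
FPKM of 12 genes in each library, KI-hom (4 libraries, red) left of wild-type (6 libraries, grey), with mean and SD. The upper row shows genes that rose in KI-hom and the lower row genes that fell; no KI-hom library overlaps a wild-type library in any of the 12, and Olig2 shows the 2 wild-type libraries at 24.5 FPKM next to the KI-hom range.

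Within the list of mature oligodendrocyte and myelin genes, directions were mixed. The 41 measured members split into 8 that fell, 2 that rose and 31 without a call, with a median difference of -0.13, against -0.02 over all genes tested. The summed FPKM of the list was 6780 to 7235 in KI-hom libraries and 7206 to 8446 in wild-type libraries. In whole-tissue RNA, fewer cells of a type and less RNA per cell cannot be told apart. The part of this summed level in the calls of single genes was not tested.

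Il33, a nuclear cytokine released on tissue damage and held by glia in the brain, was the largest decrease. It had 47.3, 61.6, 49 and 57.2 FPKM in KI-hom libraries, against 82.1, 92.5 and 116 FPKM in wild-type. The groups were far apart and Il33 fell by 0.81 ± 0.11 (SE), or 1.76-fold (limma adjusted p = 0.000452). Car2, the cytosolic carbonic anhydrase of oligodendrocytes, had 162, 198, 172 and 176 FPKM in KI-hom, against 230.1, 264 and 279 FPKM in wild-type. It fell 1.46-fold with no overlap (limma adjusted p = 0.000816). Serpinb1a, an inhibitor of serine proteases, fell 1.54-fold (limma adjusted p = 0.0111, and 0.0743 without KI-hom library 1).

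The tetraspan membrane proteins Pmp22, Tspan2 and Mal each fell. Pmp22, a tetraspan known for its dosage-sensitive role in peripheral nerve, had 46.9, 45, 51.7 and 45.9 FPKM in KI-hom libraries, against 62.8, 68.1 and 70.2 FPKM in wild-type, a 1.41-fold fall (limma adjusted p = 0.000452). Tspan2, a tetraspanin of myelin, had 51.8, 51.3, 46.8 and 51.3 FPKM, against 62, 69.6 and 82.7 FPKM in wild-type, and also fell 1.41-fold (limma adjusted p = 0.000568). Mal, a proteolipid of membrane rafts, had 128, 142, 132 and 139.7 FPKM, against 161, 174 and 219.8 FPKM in wild-type, and fell 1.31-fold (limma adjusted p = 0.00589). None of these 3 genes had a KI-hom library within the wild-type range, and each held in all 10 leave-one-out fits. With KI-hom and wild-type fitted alone, Pmp22 passed (limma adjusted p = 0.013), but Tspan2 and Mal did not (limma adjusted p = 0.0855 and 0.203). Fa2h, which hydroxylates the fatty acids of myelin galactolipids, fell 1.22-fold (limma adjusted p = 0.0462), and held in 1 of 10 leave-one-out fits.

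Other structural myelin genes did not pass and lay nearer to wild-type. The adhesion protein Mag averaged 431.5 FPKM in KI-hom and 450.4 FPKM in wild-type, a difference of -0.06 (limma adjusted p = 0.837). The phosphodiesterase Cnp averaged 326 and 349 FPKM, a difference of -0.10 (limma adjusted p = 0.716), and Mobp lay at -0.25 (limma adjusted p = 0.247). Klk6, the main serine protease of oligodendrocytes, lay at -0.39 with overlapping groups (limma adjusted p = 0.314). Anln, an actin-binding scaffold that holds septins in myelin, went the other way: it had 42.3, 42.6, 41.4 and 42 FPKM in KI-hom, against 29.6, 29.9 and 39.4 FPKM in wild-type. Anln rose 1.29-fold (limma adjusted p = 0.0225, and 0.0793 without KI-hom library 1), and its 2 highest wild-type values were those of libraries 2 and 5, at 39.4 and 38.3 FPKM.

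Of 13 transcription factors of the oligodendrocyte lineage, 1 rose, none fell and 12 did not pass, with 5 of the 13 differences below 0. Olig2, the transcription factor that specifies the lineage, had 25.1, 26.2, 25.5 and 27.5 FPKM in KI-hom libraries, against 15.3, 16.5 and 24.5 FPKM in wild-type. All KI-hom values lay above all wild-type values, but wild-type libraries 2 and 5 were both at 24.5 FPKM and the other 4 at 15.3 to 16.9 FPKM. Olig2 rose 1.39-fold (limma adjusted p = 0.0462) but held in 2 of 10 leave-one-out fits (limma adjusted p up to 0.133, without KI-hom library 3). Among the 12 that did not pass, Zfp488 lay at 0.31 and Olig1 at 0.22 (limma adjusted p = 0.0803 and 0.147). Smoc1, a secreted matrix protein of precursor cells, had 9.09, 10.1, 11.8 and 11.9 FPKM in KI-hom, against 5.52, 6.29 and 8.55 FPKM in wild-type, and rose 1.56-fold (limma adjusted p = 0.0159, and 0.0933 without KI-hom library 3). It was the only 1 of 18 precursor genes to pass, and the precursor receptor Pdgfra lay at 0.03 (limma adjusted p = 0.924). At an unadjusted p under 0.05, 2 of the 18 were higher and 4 lower, and the list's median was 0.02. Ptprz1 and Itpr2 of this list lay below 0 and did not pass (limma adjusted p = 0.0792 and 0.189). Omg, the oligodendrocyte myelin glycoprotein, rose 1.23-fold (limma adjusted p = 0.028, and 0.123 without KI-hom library 1), and Jam3, a junctional adhesion molecule, rose 1.25-fold (limma adjusted p = 0.0481, and 0.153 without KI-hom library 3).

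**Figure D3:**
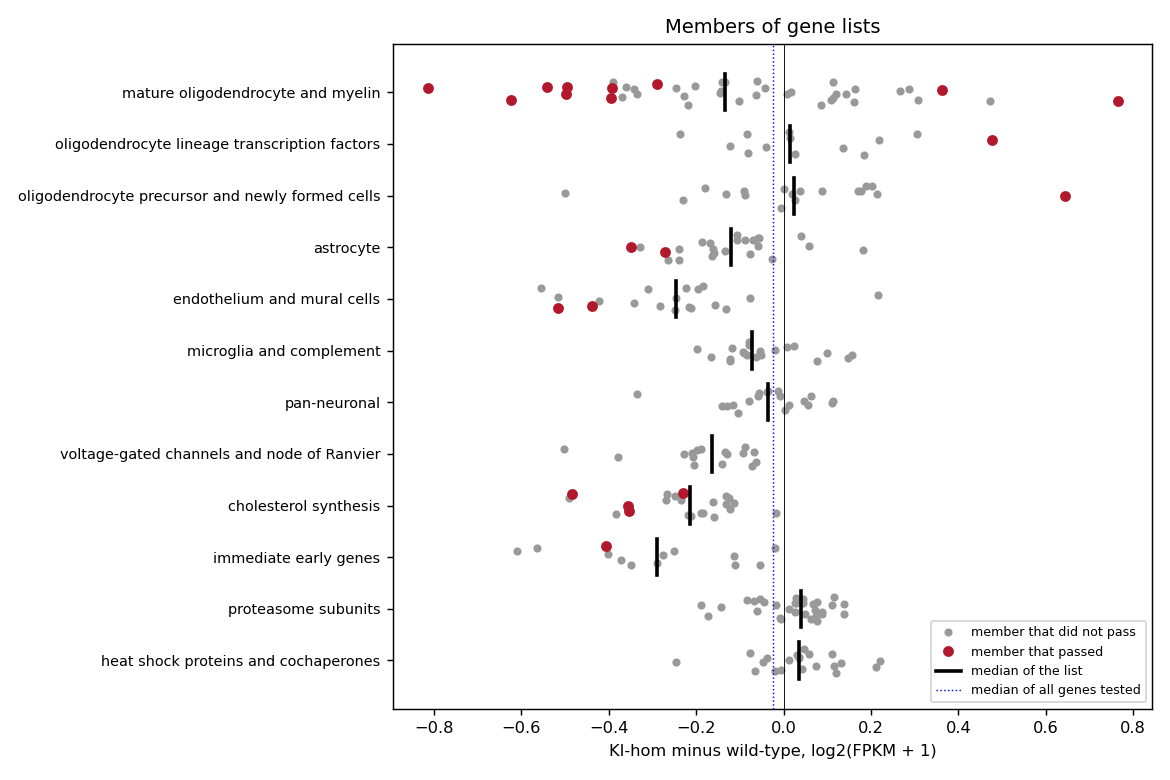
Difference of KI-hom minus wild-type in log2(FPKM + 1) for each measured member of 12 gene lists, with members that passed in red, the list's median as a black bar and the median of all genes tested as a dotted line. Red points lie on both sides of 0 for mature oligodendrocyte genes, while all 22 sterol genes and all 13 immediate early genes lie below 0.

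Cholesterol in the brain is made within it, mostly by glia, and its enzymes are switched on together by the transcription factor Srebf2 when sterols are scarce. Of 22 genes of cholesterol synthesis and sterol control measured, 4 fell, none rose and 18 did not pass, while all 22 differences were below 0. Their median was -0.21, against -0.02 over all genes tested, of which 58.3% lay below 0. At an unadjusted p under 0.05, 16 of the 22 were lower. The summed FPKM of the list was 632 to 682 in KI-hom libraries and 706 to 815 in wild-type libraries, with no overlap. The 2 lowest wild-type sums were those of libraries 2 and 5, at 706 and 726, and the other 4 lay at 765 to 815; their part in the result was not tested. The number of calls was 2 without the libraries numbered 1 and 10 with a term for them. The median stayed between -0.22 and -0.19 under both rescalings, with either covariate and without the libraries numbered 1.

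Sqle, the epoxidase of the first oxygen-requiring step, had 30.3, 31.8, 31 and 31.6 FPKM in KI-hom libraries, against 34.2, 37.2 and 38.7 FPKM in wild-type. All KI-hom values were below wild-type, and Sqle fell 1.17-fold (limma adjusted p = 0.00969, and 0.0535 without KI-hom library 1). Mvd, the decarboxylase that makes isopentenyl pyrophosphate, had 8.8, 10.1, 9.69 and 10.2 FPKM, against 11.5, 14.2 and 16.4 FPKM in wild-type, and fell 1.4-fold (limma adjusted p = 0.0462). Insig1, the membrane protein that retains the sterol sensor in the endoplasmic reticulum, had 70.4, 70.9, 63.4 and 63.5 FPKM, against 71.6, 91 and 98 FPKM in wild-type, and fell 1.28-fold (limma adjusted p = 0.0255). The gap between the groups was narrow for Insig1. Mvd and Insig1 held in 2 and 3 of 10 leave-one-out fits, with limma adjusted p up to 0.161 and 0.117. Lss, the cyclase that makes lanosterol, lay at -0.49 but did not pass (limma adjusted p = 0.0817).

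**Figure D4:**
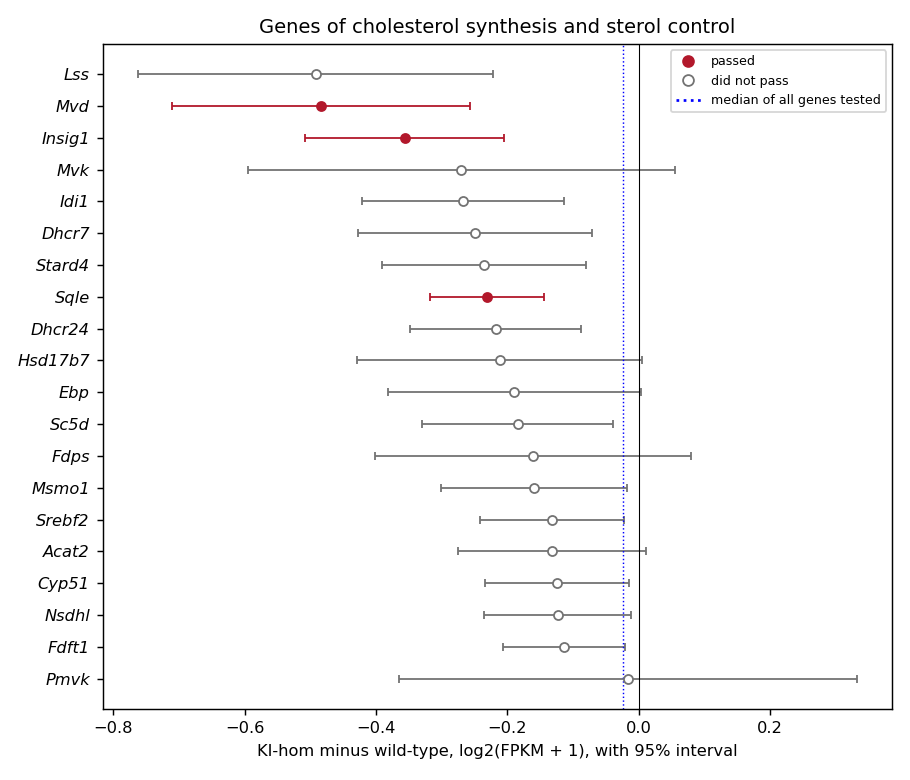
Difference of KI-hom minus wild-type in log2(FPKM + 1) with its 95% interval for 20 of the sterol genes measured, filled red for the 3 shown that passed. All 20 points lie left of 0, from -0.49 for Lss to -0.02 for Pmvk, and 14 intervals exclude 0.

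The stretches before the start sites of the sterol genes that fell are shown because promoters of this pathway are known to pair binding of Srebf2 with the factor NF-Y at CCAAT boxes. The RefSeq table of promoters (GRCm38.p6) held Insig1 and Mvd of the 4. Printed are the 250 bases before each start site, 5′ to 3′ on the strand of the gene, with CCAAT on either strand (ATTGG where it lies on the other strand) in capitals.
Insig1, chr5:28071162-28071411, plus strand: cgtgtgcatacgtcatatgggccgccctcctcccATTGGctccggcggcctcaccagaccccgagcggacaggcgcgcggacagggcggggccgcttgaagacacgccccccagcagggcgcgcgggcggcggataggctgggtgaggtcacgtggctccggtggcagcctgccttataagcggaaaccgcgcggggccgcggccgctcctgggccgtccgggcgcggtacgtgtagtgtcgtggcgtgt
Mvd, chr8:122443423-122443672, minus strand: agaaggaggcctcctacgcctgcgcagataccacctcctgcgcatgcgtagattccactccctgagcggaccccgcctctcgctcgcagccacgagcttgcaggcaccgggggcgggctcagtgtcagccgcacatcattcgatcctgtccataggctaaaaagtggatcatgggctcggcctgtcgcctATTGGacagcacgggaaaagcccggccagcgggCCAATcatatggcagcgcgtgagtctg
The Insig1 stretch held 1 match, beginning 216 bases before the start, and the Mvd stretch held 2, beginning 60 and 27 bases before it. Of the 22 sterol genes tested, 15 had an entry, and 14 of these held CCAAT in the 250 bases of at least 1 start site. The share was 40.2% of the 10320 tested genes with an entry and 33.9% of all 32851 promoters in the table. The sterol regulatory element TCACNCCAC, read on both strands, was in none of the 15, so none overlapped a CCAAT match, and it was in 1.05% of all promoters. A match describes the letters of the window only.

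Of 24 astrocyte genes measured, 2 fell, none rose and 22 did not pass, with a median of -0.12 and summed FPKM of 3681 to 3839 in KI-hom and 3868 to 4355 in wild-type libraries. The number that fell was 0 under quantile normalization, 1 under median-ratio rescaling and 1 without the libraries numbered 1. With a term for the libraries numbered 1, 5 fell and 1 rose. Slc6a11, the astrocyte GABA transporter, had 158, 165, 147 and 150.0 FPKM in KI-hom, against 170.4, 190.4 and 209 FPKM in wild-type. It fell 1.21-fold without overlap (limma adjusted p = 0.0197, and 0.105 without KI-hom library 3). Slc4a4, a sodium bicarbonate cotransporter, had 47.7, 55.8, 54.2 and 54.9 FPKM, against 58.6, 69.5 and 75.1 FPKM in wild-type, and fell 1.27-fold (limma adjusted p = 0.0462, and 0.18 without KI-hom library 1). The glutamate transporter Slc1a2 and the connexin Gja1 lay at -0.26 and -0.16 with all KI-hom libraries below wild-type, and did not pass (limma adjusted p = 0.0792 and 0.114). The gliosis marker Gfap lay at 0.04 (limma adjusted p = 0.964).

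Of 19 endothelial and mural genes measured, 2 fell, none rose and 17 did not pass. The number of limma calls was 0 without the libraries numbered 1, 1 under quantile normalization and 4 with a term for the libraries numbered 1. In all, 18 of 19 differences were below 0, and their median was -0.25, against -0.02 over all genes. Their summed FPKM was 194 to 227 in KI-hom and 216 to 290 in wild-type libraries, which overlap. Flt1, a receptor for vascular growth factor, had 5.82, 6.61, 5.82 and 6.91 FPKM in KI-hom, against 6.95, 10.2 and 11.6 FPKM in wild-type, and fell 1.43-fold (limma adjusted p = 0.0442). Its lowest wild-type value, that of library 2, lay just above the KI-hom range, and Flt1 held in 2 of 10 leave-one-out fits (limma adjusted p up to 0.147, without KI-hom library 3). Pecam1, an adhesion molecule of endothelial junctions, had 4.08, 3.87, 5.33 and 4.99 FPKM, against 5.45, 6.56 and 7.45 FPKM in wild-type, and fell 1.35-fold (limma adjusted p = 0.0255, and 0.115 without KI-hom library 1). Gpr116, an adhesion receptor of endothelium, had 3.1, 3.12, 2.9 and 3.34 FPKM, against 3.6, 5.99 and 6.93 FPKM in wild-type, and fell 1.54-fold (limma adjusted p = 0.0126, and 0.0697 without KI-hom library 3). The membrane-bound carbonic anhydrase Car4 fell 1.43-fold with overlapping groups (limma adjusted p = 0.0462, and 0.174 without KI-hom library 3).

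Among genes that respond to glucocorticoids or to neuronal activity, 3 fell and none rose. Sgk1, a kinase induced by glucocorticoids, had 50.2, 50.6, 60.8 and 54.4 FPKM in KI-hom libraries, against 78.8, 92 and 128 FPKM in wild-type. It fell 1.75-fold with a clear gap (limma adjusted p = 0.0216, and 0.0793 without KI-hom library 1). Ddit4, an inhibitor of the growth kinase complex mTORC1, had 23.6, 25, 24.6 and 25.6 FPKM, against 30.3, 36 and 44.8 FPKM in wild-type, and fell 1.42-fold (limma adjusted p = 0.0127, and 0.0617 without KI-hom library 1). Of 16 glucocorticoid-responsive genes measured these were the 2 that passed, and the list's median was 0.02 (-0.05 without the libraries numbered 1). At an unadjusted p under 0.05, 5 of its members were higher and 3 lower. Of 13 immediate early genes, which neurons and glia switch on within minutes of a stimulus, Dusp1 alone passed, with a 1.33-fold fall (limma adjusted p = 0.0418, and 0.147 without KI-hom library 3). No immediate early gene passed under median-ratio rescaling, under quantile normalization or without the libraries numbered 1. With a term for those libraries, 3 fell. All 13 differences were below 0 with a median of -0.29, Fos lay at -0.56 and Nr4a1 at -0.61 (limma adjusted p = 0.162 and 0.0817), and the summed FPKM was 64 to 69.9 in KI-hom and 71.5 to 99 in wild-type libraries, of which libraries 2 and 5 again had the lowest sums (71.5 and 75.5).

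Further decreases lay outside these lists. Pde8a, a phosphodiesterase for cyclic AMP, had 8.62, 9.64, 9.04 and 9.45 FPKM in KI-hom, against 11.1, 13.5 and 14.1 FPKM in wild-type. Pde8a fell 1.38-fold without overlap (limma adjusted p = 0.00111, and 0.0734 with KI-hom and wild-type fitted alone). Fgfr2, a fibroblast growth factor receptor of glia, fell 1.38-fold (limma adjusted p = 0.0462, and 0.161 without KI-hom library 3). Trub2, a pseudouridine synthase, fell 1.41-fold (limma adjusted p = 0.0462, and 0.166 without KI-hom library 1), and Tcp11l1 fell 1.37-fold (limma adjusted p = 0.0255, and 0.138 without KI-hom library 3). In the annotation, 18 of the 85 called genes that could be matched overlap another protein-coding gene, among them Carhsp1, Tspan2, Omg, Mvd, Trub2, Tcp11l1 and Dusp1, and their FPKM are uncertain without strand information.

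No gene passed in the lists of ubiquitin handling, genes flanking Atxn3, microglia and complement, choroid plexus, meninges, pan-neuronal genes, monoamine and cholinergic neurons, proteasome, heat shock proteins, autophagy and lysosome, endoplasmic reticulum stress, p53 and DNA repair, interferon response, circadian clock, reactive gliosis, other polyglutamine disease genes, synaptic vesicle release and the respiratory chain. Proteasome subunits, which degrade ubiquitinated proteins, had a median of 0.04 over 33 genes, and heat shock proteins a median of 0.04 over 21 genes. The pan-neuronal list had a median of -0.04 over 19 genes. Voltage-gated channels and proteins of the node of Ranvier had none passing of 16, but all 16 differences were below 0, with a median of -0.16 and 8 lower at an unadjusted p under 0.05. Kcna2, a potassium channel beside the node, lay at -0.50 with overlapping groups (limma adjusted p = 0.118). Of 17 circadian clock genes 16 lay below 0, with a median of -0.12 and 6 lower at an unadjusted p under 0.05. Their summed FPKM was 279 to 290 in KI-hom and 302 to 332 in wild-type libraries. Of 8 other polyglutamine disease genes 7 lay below 0, with a median of -0.12. In the choroid plexus list 1 of 15 lay below 0, with a median of 0.16 (-0.17 without the libraries numbered 1).

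The dose of the single-repeat allele was read by setting KI-hom against KI-het, which shares no library with wild-type. No gene passed (0 of 14802, 0%, by limma), with 333 at an unadjusted p under 0.05, 200 higher and 133 lower in KI-hom. A gene-wise difference is not thereby excluded. The genes that follow were named for their difference from wild-type, which used the same KI-hom libraries. Their 95% intervals are not adjusted over all genes, so they only place KI-hom beside KI-het. Chdh had 3.9 to 4.32 FPKM in KI-hom and 3.14 to 3.72 FPKM in KI-het, a difference of 0.21 with a 95% interval of 0.04 to 0.38. For Acy3 the difference was 0.46 (0.24 to 0.69), with 4.22 to 5.38 FPKM in KI-hom and 2.79 to 3.56 FPKM in KI-het. Car2 lay at -0.30 (-0.48 to -0.12), with 162 to 198 FPKM in KI-hom and 201 to 231 FPKM in KI-het. For the sterol and endothelial genes the intervals lay about 0, as in Insig1 (-0.24 to 0.09), Flt1 (-0.30 to 0.22) and Gpr116 (-0.29 to 0.24). Sgk1 was 50.2 to 60.8 FPKM in KI-hom and 33.9 to 56.7 FPKM in KI-het (difference 0.36, -0.01 to 0.72).

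Against wild-type, whose libraries serve both comparisons, 17 genes (0.115%) passed in KI-het, 2 higher (0.0135%) and 15 lower (0.101%), and 9 of them were among the 89. Chdh stood at 0.76 in KI-hom and 0.56 in KI-het, Il33 at -0.81 and -0.55, Tspan2 at -0.50 and -0.40, Pde8a at -0.47 and -0.42, Gpr116 at -0.62 and -0.60, Ddit4 at -0.51 and -0.68, and Sgk1 at -0.81 and -1.17, and each passed in both (limma adjusted p of 0.000804 to 0.0428 in KI-het). Psat1 stood at 0.45 and 0.24, Car2 at -0.54 and -0.24 and Pmp22 at -0.50 and -0.30, and these 3 did not pass in KI-het (limma adjusted p = 0.0986, 0.269 and 0.0753).

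Set against dupKi-het, with 1 duplicated-repeat allele, KI-hom differed in 1457 genes (9.84%), 346 higher (2.34%) and 1111 lower (7.51%), or 636 and 829 after rescaling by median ratio. Atxn3 was lower in KI-hom, at 5.44 to 5.61 FPKM against 10.4 to 13.4 FPKM in dupKi-het, a difference of -0.96 (limma adjusted p = 2.5e-07). The 4 genes that follow were chosen from earlier results of these data because they differ in dupKi-het, so their values only place KI-hom. Agt, the precursor of angiotensin, had 49.4, 59.1, 59.2 and 60 FPKM in KI-hom and 15.9, 22.5 and 24 FPKM (lowest, median, highest) in dupKi-het, a difference of 1.37 (limma adjusted p = 1.33e-07), and in wild-type it had 50.5 to 66.3 FPKM. Etnppl, a lyase of phosphoethanolamine, was 1.15 higher, the metallothionein Mt2 1.05 higher and the imprinted gene Nnat 1.06 higher than in dupKi-het (limma adjusted p = 1e-05, 6.05e-05 and 4.26e-05). Against wild-type these 4 genes did not pass in KI-hom, with Agt at -0.08, Etnppl at -0.33, Mt2 at 0.01 and Nnat at -0.01. Reads of Mt2 and its near relatives may have been split between family members.

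Apart from Pcdh15, chosen from earlier results of these data, the next genes were named for their difference from wild-type. That difference used the same KI-hom libraries, so the values against dupKi-het only place KI-hom. The endothelial genes Flt1, Gpr116 and Pecam1 were lower in KI-hom than in dupKi-het, at -0.93, -0.82 and -0.66 (limma adjusted p = 2.69e-05, 0.000149 and 8.79e-05). Flt1 ran from 5.82 to 6.91 FPKM in KI-hom, 9.27 to 15.8 FPKM in dupKi-het and 6.95 to 11.6 FPKM in wild-type. Pcdh15, a protocadherin of precursor cells, was 0.65 lower in KI-hom than in dupKi-het (limma adjusted p = 0.000107). Chdh was 0.30 lower in KI-hom than in dupKi-het (limma adjusted p = 0.0132), with 4.64 to 6.3 FPKM in dupKi-het. For Il33, Car2, Tspan2 and Acy3 the difference between KI-hom and dupKi-het did not pass, with 95% intervals of -0.29 to 0.17, -0.02 to 0.31, -0.19 to 0.10 and -0.25 to 0.16. Sqle was 0.17 lower in KI-hom (limma adjusted p = 0.012).

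**Figure D5:**
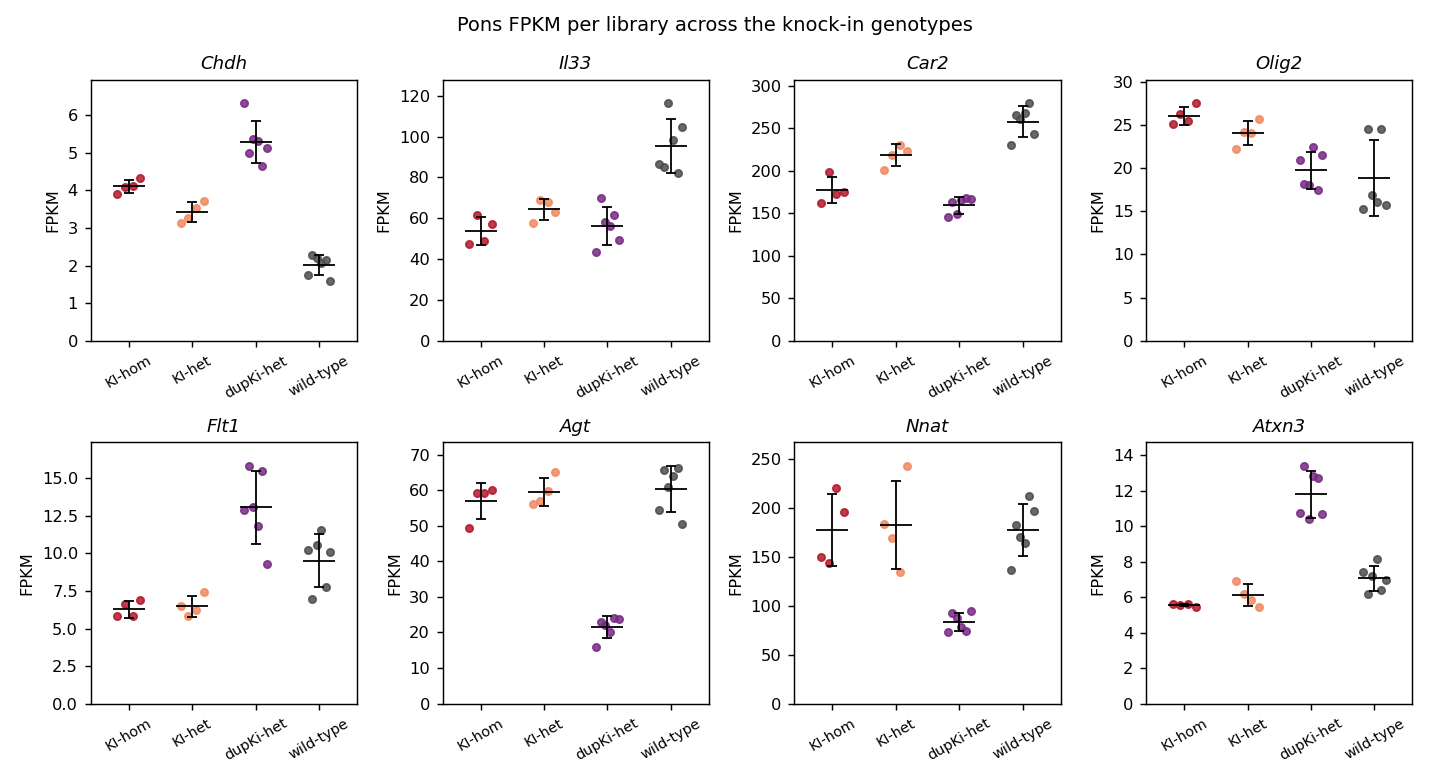
FPKM of 8 genes in each library of KI-hom, KI-het, dupKi-het and wild-type pons (4, 4, 6 and 6 libraries), with mean and SD. Agt, Nnat and Atxn3 in KI-hom lie near the wild-type range and apart from dupKi-het, Il33 and Car2 in KI-hom lie with dupKi-het, and Chdh lies between KI-het and dupKi-het.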

How the data were processed

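Total RNA from pons was sequenced. The authors deposited FPKM per gene and library. Per the submitters' processing notes, tools included Trimmomatic, FastQC, Cuffdiff, CASAVA 1.8.2, DESeq and TopHat2, with build mm8; roles and order are not given in the sources used here. Of 41386 lines, 27 whose name had become a date were dropped and 132 repeats of a symbol were summed. The 12 genes listed at 0 in every library of 1 genotype and at 1 FPKM or more in every library of another were left out. For 3 wild-type columns the header name occurs in both sets of columns, so they entered as wild-type libraries without a sample of their own; 9 columns of the other set were not used. Library numbers follow the column names and no label ties equal numbers to a shared origin. Genes with at least 1 FPKM in 3 of 28 libraries (14802) were fitted as log2(FPKM + 1) with limma 3.58.1 (trend; R 4.3.3), 1 mean per genotype over all 6 genotypes (those named and mice transgenic for human ATXN3 with a Q84 or Q15 repeat, which share the estimate of spread), and p-values, two-sided, were adjusted by Benjamini-Hochberg over all genes. The table gives no read totals, so no counting error is given. The code was tested on simulated data. The comparison, the 28 gene lists and the rule for named genes (Atxn3, the 15 largest called changes each way, called or smallest-p list members, earlier-named genes) were chosen with earlier results of these data known; Clmn, Kdm6b, Mga, Gm12353, Cacna1d, Mag, Cnp, Mobp, Lss and Pmvk fall outside that rule and were chosen after their values were seen. Alternatives were other pseudocounts, filters, scalings, covariates and sample sets; those for the libraries numbered 1 were added after the data were seen. Some members of the lists are counted but not reported singly here.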

Additional observations from a re-analysis of the deposited data

Results flagged for a closer look

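In 8 of 178 groups of 4 to 6 libraries examined, 1 library stood far from the others; chance marks about 1 in 20 such groups. In KI-hom, Csmd1 had 1.57 FPKM in library 4, below 1.62 to 1.63 FPKM in the other 3, Dcun1d3 had 3.72 FPKM in library 2, above 3.28 to 3.35 FPKM, Etv1 had 34.4 FPKM in library 1, above 29.2 to 29.7 FPKM, Kdm6b had 3.57 FPKM in library 1, below 4.02 to 4.1 FPKM, and Tspan2 had 46.8 FPKM in library 3, below 51.3 to 51.8 FPKM. In wild-type, Fgfr2 had 67.1 FPKM in library 3, above 45 to 50.6 FPKM in the other 5, Hcn4 had 3.69 FPKM in library 2, below 4.24 to 4.36 FPKM, and Mal had 219.8 FPKM in library 6 (220 to 3 digits), above 161 to 181 FPKM. The library that stood apart was numbered 1 in 2 of the 8 groups. The causes were not tested.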

How the results depend on the processing

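The 89 genes that differed between KI-hom and wild-type became 6 with those genotypes fitted alone, 44 without the filter on low values, 383 with a covariate for the libraries numbered 1, 41 without those libraries, and 36 with both genotypes fitted alone and that covariate. A pseudocount of 0.1 gave 98, the stricter filter 76, median-ratio rescaling 91, quantile normalization 80 and a covariate for Ttr 113. In that order, 89, 66, 59, 53 and 89 of these calls were among the 89 as reported. Leaving out 1 library gave 19 to 239. No called gene changed sign in any fit. KI-hom against KI-het stayed at 0 except without the libraries numbered 1, where 1 gene passed. KI-hom against dupKi-het, 1457 genes as reported, gave 927 with those genotypes alone, 3242 with the covariate for the libraries numbered 1, 2211 with both, and 873 to 1822 when 1 library was left out. The Atxn3 difference stayed between -0.33 and -0.25 and passed nowhere. The causes were not tested.

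With the column number as a replicate block, KI-hom against wild-type gave 711 genes and KI-hom against dupKi-het 3840. No label pairs the libraries by number. Deviations of same-numbered KI-hom and wild-type libraries correlated at 0.38, -0.08, -0.12 and 0.03 for numbers 1 to 4. For KI-hom and KI-het the values were 0.29, 0.06, 0.07 and 0.31, and for KI-hom and dupKi-het 0.35, -0.03, 0.13 and 0.07. What libraries of equal number share was not tested. FPKM keep no read totals, so depth limits low genes by an unknown amount.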
